A study of Mus musculus with 13 samples.

Results

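The genes described here are 8 cyclic nucleotide phosphodiesterases of the mouse, Pde2a, Pde1b, Pde3b, Pde4a, Pde4b, Pde4d, Pde7a and Pde8a, out of 24072 RefSeq identifiers counted in every library. They were matched by gene symbol, and the set was chosen because Pde2a was high in Ly6D+Gfra2+ cells in these same libraries. The levels of the 8 genes in Ly6D+Gfra2+ cells are therefore given as a description, without a test. The labels do not say whether libraries came from separate animals, so p-values measure the spread between these libraries only. A test is read for the 8 genes only in the comparison of the Ly6D+Gfra2- and Ly6D-Gfra2- groups. The choice did not rest on that difference. Libraries of both groups entered it as the reference, so the test is not wholly independent of the choice. All libraries came from common lymphoid progenitors (CLP), precursors of B, T and NK cells, which were sorted by flow cytometry from bone marrow of C57BL/6 mice of genotype WT. The labels give no age and no treatment. Sorted groups were Ly6D-Gfra2- (6 libraries of total RNA), Ly6D+Gfra2- (4) and Ly6D+Gfra2+ (3). The surface protein Ly6D marks CLP that lean to B cell fate, and Gfra2 binds neurturin together with Ret. Library names begin with P (5 libraries) or T (8 libraries), without a stated meaning. Names of T libraries with the same replicate number end in the same tag, also unexplained. Prefix P is found on replicates 1 to 3 of the Ly6D-Gfra2- group and on 1 and 2 of the Ly6D+Gfra2- group, so the Ly6D+Gfra2+ group holds T libraries only.

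Cyclic AMP and cyclic GMP are second messengers made by adenylyl and guanylyl cyclases, and phosphodiesterases end their signals by hydrolysis. The families differ in substrate and in control. Pde2a hydrolyses both messengers and is stimulated by cyclic GMP, and Pde1b hydrolyses both and is activated by calcium and calmodulin. The hydrolysis of cyclic AMP by Pde3b is inhibited by cyclic GMP. Pde4a, Pde4b, Pde4d, Pde7a and Pde8a are specific for cyclic AMP, and the Pde4 enzymes are the main targets of rolipram and related anti-inflammatory drugs. In lymphocytes, cyclic AMP acts largely through protein kinase A and restrains signalling from antigen receptors.

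Depth ranged from 6892728 to 23705975 counts per library, at which 3 counts equal 0.127 to 0.435 CPM, counts per 1000000 counts. Identifiers with a count numbered 12904 to 13969 in Ly6D-Gfra2- libraries and 11636 to 13364 in Ly6D+Gfra2- libraries. Ly6D+Gfra2+ replicates 4, 5 and 6 had fewer than any Ly6D-Gfra2- library, at 11873, 10837 and 12369. The part of this in genes at 0 or few counts there was not tested. Levels are CPM after TMM scaling, given as mean ± SD. Ly6d was at 0.623 to 8.30 CPM in 5 of the 6 Ly6D-Gfra2- libraries, but at 213 CPM in replicate 3 of that label, within the 158 to 507 CPM of the Ly6D+Gfra2- group. The Ly6D+Gfra2+ libraries held 287 to 515 CPM of Gfra2, and no other library more than 14.7 CPM. All 6 CLP markers examined (Il7r, Flt3, Kit, Cd27, Rag1 and Dntt) had counts in each group, with summed levels of 5045 to 6073, 5679 to 6699 and 6892 to 8191 CPM in Ly6D-Gfra2-, Ly6D+Gfra2- and Ly6D+Gfra2+ cells.

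Start-site windows of the members were examined for the cyclic AMP response element (CRE), the site through which CREB factors act. RefSeq start-site windows of 300 bases on GRCm38.p6 (250 bases before and 50 after a start) were at hand for 6 of the 8 genes, 17 windows in all. Windows of Pde2a and Pde4b, the pair of genes with the highest levels per kilobase in Ly6D+Gfra2+ cells, are shown because each holds the CRE core, TGACG or its reverse complement, in capitals. Both are on the plus strand.
Pde2a, chr7:101450270-101450569: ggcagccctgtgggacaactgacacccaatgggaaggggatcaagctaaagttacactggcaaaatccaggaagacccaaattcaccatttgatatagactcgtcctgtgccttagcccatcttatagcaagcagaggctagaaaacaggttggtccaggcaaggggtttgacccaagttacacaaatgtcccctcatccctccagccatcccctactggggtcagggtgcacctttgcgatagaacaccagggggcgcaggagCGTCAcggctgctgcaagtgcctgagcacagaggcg
Pde4b, chr4:102421305-102421604: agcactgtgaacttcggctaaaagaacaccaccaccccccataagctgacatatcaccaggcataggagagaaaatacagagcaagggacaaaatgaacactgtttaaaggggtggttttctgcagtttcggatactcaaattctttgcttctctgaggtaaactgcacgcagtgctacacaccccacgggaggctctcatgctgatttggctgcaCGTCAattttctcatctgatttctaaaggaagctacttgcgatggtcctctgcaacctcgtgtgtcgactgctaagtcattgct
The core begins 14 bases after the start in the Pde2a window and 34 bases before it in the Pde4b window. Searched on both strands, it was present in 4 of the 17 windows, or 23.5%, against 20.8% of 32851 promoter windows of the same kind. Besides the windows shown, a window of Pde4a and a window of Pde8a held it, at -50 and -84 bases from the start. The full CRE, TGACGTCA, was in 0 of the 17 windows (1.79% of all windows). The palindromic motif of the B-lineage factor EBF was also in 0 (0.904% of all). The E-box, CANNTG, was in 15 of the 17 and in 72.3% of all windows. Pde2a has 5 listed starts, among them a window with 29 CpG dinucleotides and 69.7% GC, against medians of 7 CpG and 52.7% GC. The GENCODE transcript matched to the counted Pde2a identifier starts 10805 bases before the nearest listed start and 39634 bases before that of the window shown. For Pde4b the start of the window shown is 148540 bases from that of the matched transcript. The Pde4b window whose start is 35 bases from it does not hold the core. Which start these cells use was not measured.

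Pde2a (NM_001243757, chromosome 7, 101421691 to 101512829, plus strand, mm10) was the member whose level differed most between the groups. In Ly6D-Gfra2- replicates 1 to 6 it was at a lowest of 1.96, a median of 11.1 and a highest of 23.5 CPM. In Ly6D+Gfra2- replicates 1, 2, 5 and 6 it was at 36.6, 56.3, 52.2 and 33.3 CPM. In Ly6D+Gfra2+ replicates 4, 5 and 6 it was at 331, 591 and 406 CPM. Every Ly6D+Gfra2- library was therefore above every Ly6D-Gfra2- library and below every Ly6D+Gfra2+ library. Of all genes tested, 4.0% and 4.03% had all Ly6D+Gfra2+ libraries above all Ly6D+Gfra2- and all Ly6D-Gfra2- libraries, and among the 8 members 2 (Pde2a and Pde4b) and 4 (also Pde1b and Pde3b) did, given here as a description. The lowest library of all was Ly6D-Gfra2- replicate 2, the deepest sequenced, and replicate 3 of that group, with its high Ly6d, was at 12.6 CPM for Pde2a. Means were 12.6 ± 7.91 (SD, n = 6), 44.6 ± 11.3 (SD, n = 4) and 443 ± 134 CPM (SD, n = 3), so the last was 9.93 times the middle and 35.1 times the first. In a bulk library, more cells with the transcript and more transcript per cell cannot be told apart.

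**Figure D1:**
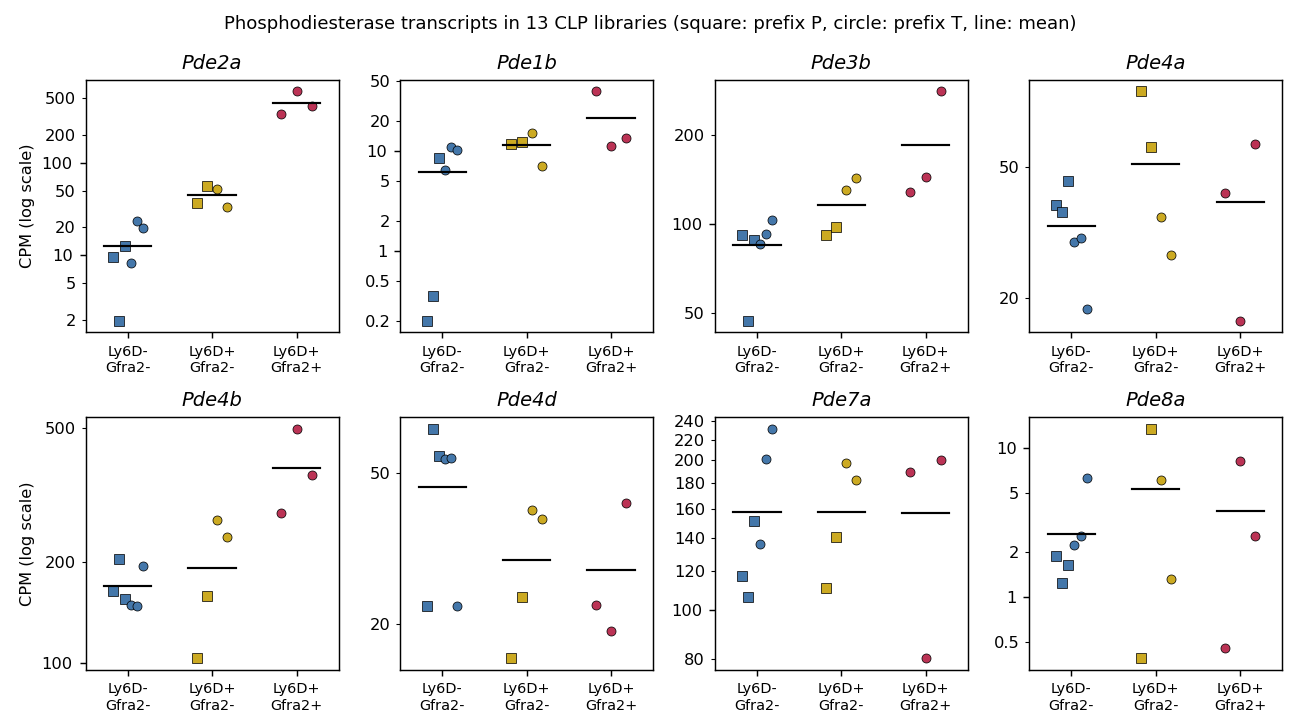
CPM on a log axis (y) for each phosphodiesterase gene in the 3 sorted groups (x), 1 point per library, with squares for prefix P, circles for prefix T and a line at the group mean. The Pde2a points form 3 bands without overlap, from 1.96 to 23.5, 33.3 to 56.3 and 331 to 591 CPM, while the Pde7a means of the 3 groups lie between 157 and 158 CPM.

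The presence of Ly6D without Gfra2 is the comparison on which the choice of genes did not rest. Libraries of both its groups still entered that choice. For Pde2a the log2 difference between Ly6D+Gfra2- and Ly6D-Gfra2- cells was 1.95 (SE 0.44), with an unadjusted p of 0.000366 and a Benjamini-Hochberg adjusted p of 0.659 in edgeR's quasi-likelihood test over 12722 genes. The difference thus did not pass the test, although all 4 Ly6D+Gfra2- libraries were above all 6 Ly6D-Gfra2- libraries. The Ly6D+Gfra2- group lay wholly above the Ly6D-Gfra2- group in this way for 0.582% of genes tested. DESeq2 gave 1.94 with an adjusted p of 0.0139, and edgeR without a filter on low counts gave 1.94 with an adjusted p of 0.0264, so Pde2a was called by those 2 analyses. Over all alternatives its adjusted p ran from 0.0139 to 0.9999 and its log2 fold change from 1.32 to 2.53. The ends of the log2 fold change came from the T libraries and the P libraries alone, and the lowest adjusted p came from DESeq2. With Ly6D-Gfra2- replicate 3, the library of high Ly6d, left out, the log2 fold change was 2.10 and the adjusted p 0.246. Libraries with the same number and prefix gave ratios of 3.83 and 28.8 for P numbers 1 and 2, and of 2.22 and 1.68 for T numbers 5 and 6.

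All 8 members passed the filter on low counts. None of the other 7 genes passed the test in this comparison, with adjusted p of 0.999 for each in edgeR's quasi-likelihood test. So 0 of 8 members were called, against 0.0% of all genes tested; 1 member, Pde2a, had an unadjusted p under 0.05, as did 4.71% of all genes. DESeq2 called 1 member, Pde2a, and 0.365% of all genes. Log2 fold changes of the 8 members were positive for 7 and negative for 1, Pde4d, with a median of 0.49 beside -0.01 over all genes tested. The groups overlapped for 7 of the 8.

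In Ly6D+Gfra2+ against Ly6D+Gfra2- cells, Pde2a differed by 2.96 (SE 0.60) on the log2 scale, and against Ly6D-Gfra2- cells by 4.91 (SE 0.54). Both are descriptions, since the gene was chosen on them. Within the T libraries alone the differences were 3.36 (SE 0.51) and 4.68 (SE 0.46). Libraries of the same number gave ratios of 11.3 and 12.2 against Ly6D+Gfra2- replicates 5 and 6, and of 40.3, 25.2 and 20.4 against Ly6D-Gfra2- replicates 4, 5 and 6. Of the 8 members, 1 was past the threshold in each of these comparisons, Pde2a itself, and 0.409% and 1.39% of all genes tested were. The choice of Pde2a fixed that count, and nothing is read from it. The 2 comparisons share the Ly6D+Gfra2+ libraries. The next members by difference from Ly6D-Gfra2- cells, Pde1b at 1.51 and Pde4b at 0.997, lay far below the 4.91 of Pde2a.

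**Figure D2:**
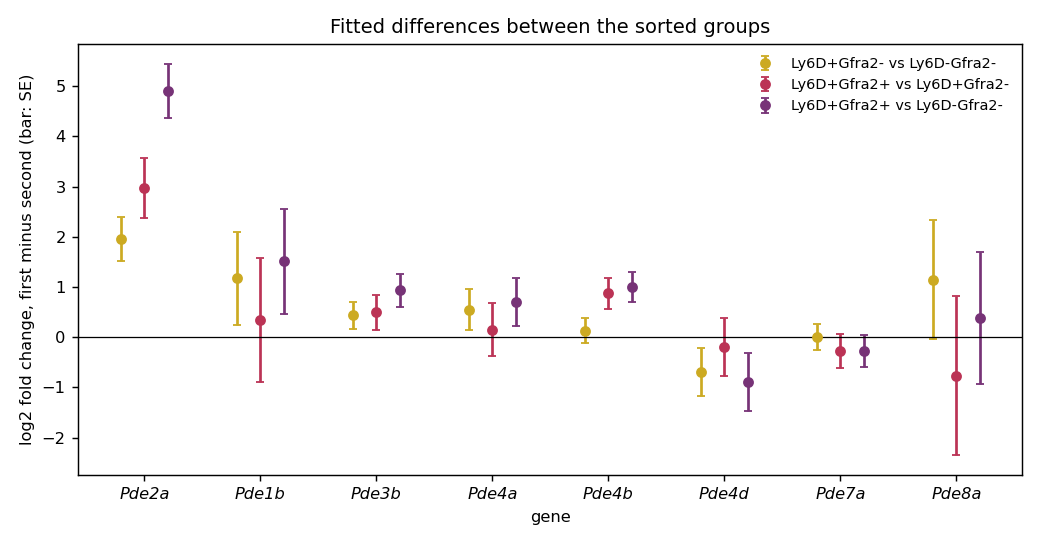
Fitted log2 fold change (y, first group minus second, bar: SE) of the 8 genes (x) in the 3 comparisons, marked by colour. Pde2a stands at 1.95, 2.96 and 4.91, and the other 7 genes lie between -0.90 and 1.51, several with bars that cross 0.

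Pde4b (NM_001177980, chromosome 4, 102087332 to 102607275, plus strand), a cyclic AMP-specific enzyme of leukocytes, had the highest level per kilobase of the 8 in all 13 libraries. Its levels in Ly6D-Gfra2- cells ran from 147 through a median of 159 to 204 CPM. In Ly6D+Gfra2- replicates 1, 2, 5 and 6 it was at 103, 158, 266 and 237 CPM, with both P libraries below both T libraries. Ly6D+Gfra2+ replicates 4, 5 and 6 held 279, 498 and 363 CPM, above every library of the other groups, though replicate 4 exceeded the highest Ly6D+Gfra2- library only narrowly. Differences of Ly6D+Gfra2+ cells were 0.87 (SE 0.31) from Ly6D+Gfra2- cells and 0.997 (SE 0.30) from Ly6D-Gfra2- cells on the log2 scale. Within the T libraries they were 0.59 (SE 0.30) and 1.21 (SE 0.27). For Ly6D alone the log2 difference was 0.12 (SE 0.25), and it was 0.63 within T libraries and -0.41 within P libraries.

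Pde3b (NM_011055, chromosome 7, 114415222 to 114537938, plus strand), the cyclic GMP-inhibited enzyme, was at 47.0 to 104 CPM (median 90.0) in Ly6D-Gfra2- cells. It was at 91.7, 97.7, 130 and 143 CPM in Ly6D+Gfra2- replicates 1, 2, 5 and 6, and at 128, 144 and 282 CPM in Ly6D+Gfra2+ replicates 4, 5 and 6. The Ly6D+Gfra2+ libraries were all above the Ly6D-Gfra2- libraries but overlapped the Ly6D+Gfra2- group, and replicate 6 stood above all other libraries. Log2 differences of Ly6D+Gfra2+ cells were 0.50 (SE 0.35) and 0.93 (SE 0.33) from Ly6D+Gfra2- and Ly6D-Gfra2- cells. Without Ly6D+Gfra2+ replicate 6 they were 0.06 (SE 0.35) and 0.49 (SE 0.33). The Ly6D comparison gave 0.43 (SE 0.27).

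Pde1b (NM_008800, chromosome 15, 103503034 to 103530056, plus strand), the calcium- and calmodulin-activated enzyme, was low and uneven. Ly6D-Gfra2- replicates 1 and 2, both P libraries, held 0.199 and 0.356 CPM, close to the level of 3 counts, and the other 4 held 6.43 to 10.9 CPM. Levels were 11.8, 12.1, 15.1 and 7.104 CPM in Ly6D+Gfra2- replicates 1, 2, 5 and 6. Ly6D+Gfra2+ replicates 4, 5 and 6 held 39.4, 11.2 and 13.3 CPM, all above the Ly6D-Gfra2- libraries, with replicate 4 apart from the rest. Log2 differences were 1.17 (SE 0.93) for Ly6D, and 0.34 (SE 1.24) and 1.51 (SE 1.04) for Ly6D+Gfra2+ against Ly6D+Gfra2- and Ly6D-Gfra2- cells. Against Ly6D+Gfra2- cells the value became -0.46 without Ly6D+Gfra2+ replicate 4, -0.16 without Ly6D+Gfra2- replicate 6 and -0.82 without Ly6D-Gfra2- replicate 3, which enters through the prefix term.

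Pde7a, Pde4d, Pde4a and Pde8a, all cyclic AMP-specific, were not set apart by group. Pde7a (NM_001122759, chromosome 3, 19223108 to 19311322, minus strand) had means of 157 ± 49.3 (SD, n = 6), 158 ± 39.5 (SD, n = 4) and 157 ± 66.4 CPM (SD, n = 3). Its Ly6D+Gfra2+ replicate 5, at 80.2 CPM, was the lowest of the 13 libraries, and replicates 4 and 6 were at 190 and 200.0 CPM. P libraries of Pde7a were lower than T libraries on average, at 125 against 190 CPM in Ly6D-Gfra2- cells and 126 against 190 CPM in Ly6D+Gfra2- cells. Its fitted differences were 0.01 (SE 0.26) for Ly6D and -0.28 (SE 0.34) and -0.28 (SE 0.32) for Ly6D+Gfra2+ against Ly6D+Gfra2- and Ly6D-Gfra2- cells. Without Ly6D+Gfra2+ replicate 5 the last 2 became 0.032 and 0.038.

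Pde4d (NM_011056, chromosome 13, 108654177 to 109955969, plus strand) was the one member with negative differences in all 3 comparisons, of -0.70 (SE 0.48), -0.20 (SE 0.57) and -0.90 (SE 0.58) in the order Ly6D, Ly6D+Gfra2+ against Ly6D+Gfra2-, and Ly6D+Gfra2+ against Ly6D-Gfra2-. Its means were 45.9 ± 18.7 (SD, n = 6), 29.4 ± 11.5 (SD, n = 4) and 27.7 ± 12.1 CPM (SD, n = 3). In Ly6D-Gfra2- cells 4 libraries held 54.6 to 65.6 CPM, while replicates 1 and 6 held 22.3 CPM each, within the range of the other groups. Ly6D+Gfra2+ replicates 4, 5 and 6 were at 22.4, 19.1 and 41.6 CPM.

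Pde4a (NM_183408, chromosome 9, 21165700 to 21213248, plus strand) was at 33.0 ± 9.13 (SD, n = 6), 51.0 ± 25.8 (SD, n = 4) and 39.1 ± 20.9 CPM (SD, n = 3). Its highest libraries were the P libraries of Ly6D+Gfra2- cells, replicates 1 and 2 at 84.7 and 57.2 CPM, and Ly6D+Gfra2+ replicate 6 at 58.5 CPM. The groups overlapped, and log2 differences were 0.55 (SE 0.40) for Ly6D, and 0.15 (SE 0.53) and 0.69 (SE 0.48) for Ly6D+Gfra2+ against Ly6D+Gfra2- and Ly6D-Gfra2- cells. The 0.15 runs against the means of 39.1 and 51.0 CPM, since the fit has a term for the prefix: without that term it was -0.38. Pde8a (NM_008803, chromosome 7, 81213265 to 81334535, plus strand), a high-affinity enzyme, was the scarcest member at 2.66 ± 1.87 (SD, n = 6), 5.37 ± 6.04 (SD, n = 4) and 3.77 ± 4.03 CPM (SD, n = 3). Ly6D+Gfra2- replicate 2 alone held 13.6 CPM of Pde8a, and without it the Ly6D difference went from 1.15 (SE 1.19) to -0.62 (SE 1.32).

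Per kilobase of the counted transcript, the make-up of the transcript pool of these 8 genes differed between the groups. Pde4b made up 35.2 to 55.9% of the summed CPM per kilobase in the 13 libraries. Pde2a made up 0.357 to 4.14% in Ly6D-Gfra2- cells, 4.79 to 9.92% in Ly6D+Gfra2- cells and 29.0 to 38.1% in Ly6D+Gfra2+ cells. Its rank among the 8 was 6, 6 and 2 in these groups. In Ly6D+Gfra2+ cells the levels per kilobase were 138 ± 40.2 for Pde4b and 107 ± 32.3 for Pde2a (SD, n = 3), closer to each other than their spread, although Pde4b was above Pde2a in each of the 3 libraries. Next came Pde3b at 28.1 ± 12.9, Pde7a at 24.9 ± 10.5, Pde4d at 10.9 ± 4.75, Pde4a at 8.39 ± 4.49, Pde1b at 6.63 ± 4.87 and Pde8a at 0.992 ± 1.06 CPM per kilobase (SD, n = 3). In that order Pde3b and Pde7a differed by less than 1 SD, as did Pde4d, Pde4a and Pde1b, while Pde7a stood more than 1 SD above Pde4d. In Ly6D-Gfra2- cells the order was Pde4b at 61.2, Pde7a at 24.99, Pde4d at 17.96, Pde3b at 12.9, Pde4a at 7.09, Pde2a at 3.05, Pde1b at 1.90 and Pde8a at 0.700 CPM per kilobase. The summed level was 112 to 145 CPM per kilobase in Ly6D-Gfra2- cells, 106 to 190 in Ly6D+Gfra2- cells and 261 to 375 in Ly6D+Gfra2+ cells. Leaving Pde2a out, the sums were 109 to 141, 97.3 to 177 and 181 to 240. The lengths are those of single transcripts, and whether counts include reads of other isoforms is not stated. Without the length, Pde2a was above Pde4b in each Ly6D+Gfra2+ library. Replicates 4, 5 and 6 held 331, 591 and 406 CPM of Pde2a against 279, 498 and 363 CPM of Pde4b.

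**Figure D3:**
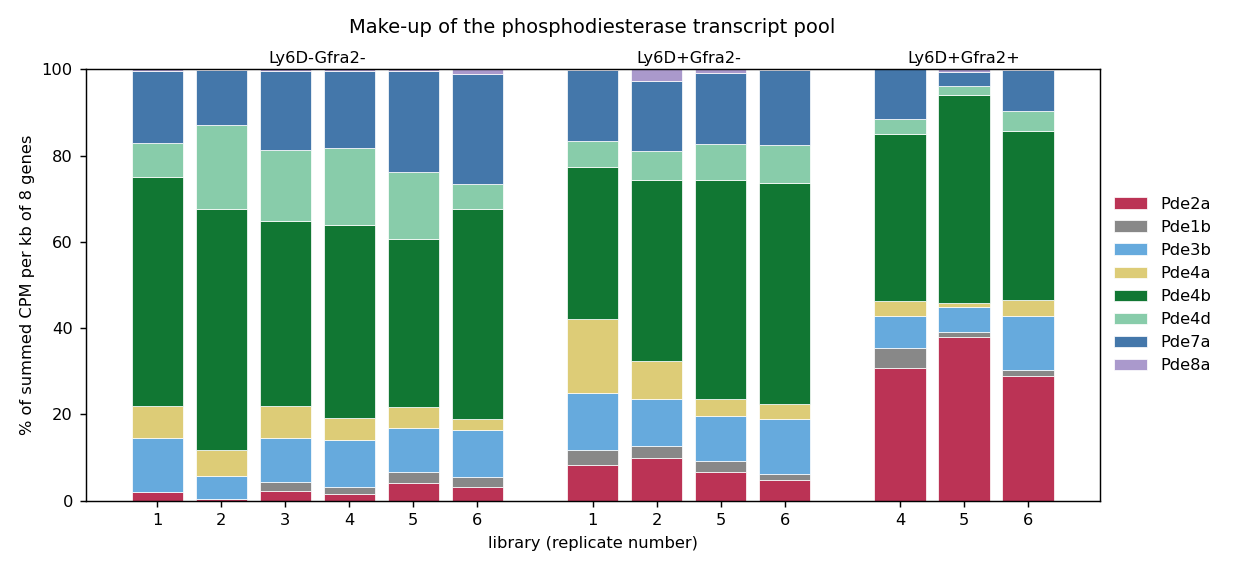
Share (y, %) of the summed CPM per kilobase of the 8 genes taken by each gene, 1 stacked bar per library (x, replicate number, grouped by sort). The Pde2a segment at the base takes 29.0 to 38.1% in Ly6D+Gfra2+ libraries and at most 9.92% in the others.

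Among all tested genes with a name, the pattern of Pde2a over the 13 libraries was nearest to that of Ebf1, at 0.89. The measure was the root mean square difference of log2 CPM after centring each gene on its own mean. Ebf1 encodes a transcription factor that specifies B cells. Rag1, the recombinase of antigen receptor genes, followed at 0.98, then the forkhead factor Foxo1 at 1.08, Arl5c at 1.12 and Smtn, a smooth-muscle cytoskeletal protein, at 1.13. Ebf1 had means of 39.2, 137 and 840 CPM, and Rag1 of 93.4, 189 and 1309 CPM, in Ly6D-Gfra2-, Ly6D+Gfra2- and Ly6D+Gfra2+ cells. Pde2a was among 5 genes, 0.0393% of those tested, whose libraries fell into 3 separate bands that went up from Ly6D-Gfra2- through Ly6D+Gfra2- to Ly6D+Gfra2+ cells. The others were Pik3r6, Cpne2, Cd79a and Mlxip. Since Pde2a was chosen for its high level in Ly6D+Gfra2+ cells, its place among these genes is a description and not a test. The other 7 phosphodiesterases lay 1.66 (Pde1b) to 2.66 (Pde4d) from Pde2a on the same measure, and the closest pair of members was Pde3b and Pde4b at 0.50.

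**Figure D4:**
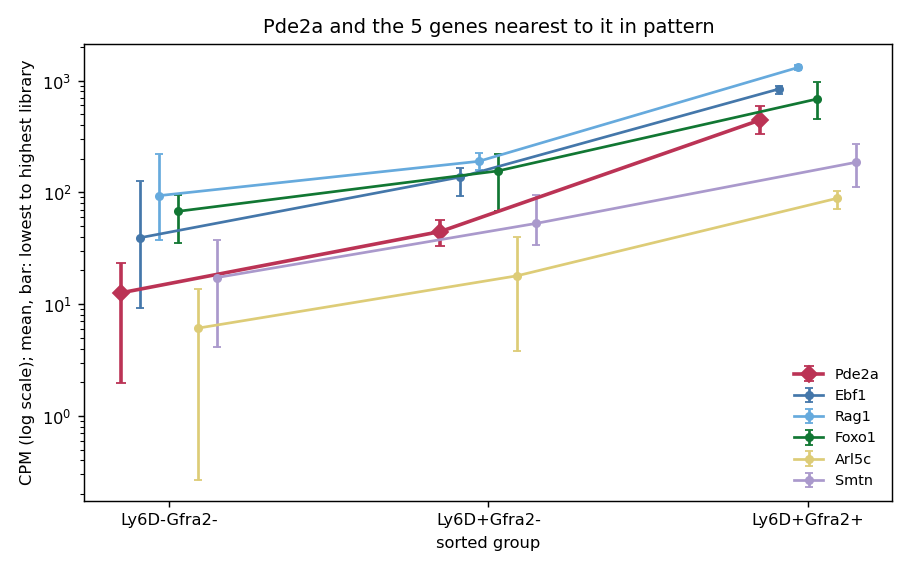
Mean CPM on a log axis (y; bars from the lowest to the highest library) in the 3 sorted groups (x) for Pde2a and the 5 genes nearest to it in pattern. Each line goes up at both steps, with Pde2a from 12.6 to 44.6 to 443 CPM.

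Genes beside Pde2a on chromosome 7 did not pass the test. Arap1, which ends 9104 bases before the Pde2a span, was at 152 ± 35.3 (SD, n = 6), 134 ± 91.6 (SD, n = 4) and 268 ± 142 CPM (SD, n = 3), with adjusted p of 0.999, 0.221 and 0.221 (edgeR) for Ly6D, Ly6D+Gfra2+ against Ly6D+Gfra2-, and Ly6D+Gfra2+ against Ly6D-Gfra2-. Clpb, 150766 bases after it, was at 9.65 ± 3.61, 44.5 ± 62.3 and 15.6 ± 19.8 CPM (SD, n = 6, 4 and 3). Mir139, a microRNA within the Pde2a span on the same strand, had 0 counts in the 13 libraries. The GENCODE transcript matched to Pde2a starts 10805 bases before that span, inside the span of Arap1. Whether reads of Arap1 enter the Pde2a count was not tested.

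Pde2a is also known from endothelial cells and platelets, and markers of other cells were read beside it. Of the 6 endothelial markers, Tek was at 0 in all libraries, Vwf was at 0 in the Ly6D+Gfra2+ libraries, and summed levels were 196 to 257, 159 to 331 and 187 to 276 CPM in Ly6D-Gfra2-, Ly6D+Gfra2- and Ly6D+Gfra2+ cells, nearly all from Pecam1, which leukocytes also express. All 5 megakaryocyte markers were at 0 in the Ly6D+Gfra2+ libraries. They summed to 0.133 to 18.2 CPM in Ly6D-Gfra2- cells and 0 to 4.87 CPM in Ly6D+Gfra2- cells. Summed granulocyte and monocyte markers were at 643 to 1457, 444 to 590 and 242 to 480 CPM, with 10, 9 and 7 of 10 detected. Plasmacytoid dendritic cell markers summed to 606 to 1248, 1065 to 1495 and 462 to 638 CPM. In the same order of groups, erythroid markers summed to 12.7 to 260, 2.71 to 34.2 and 8.86 to 51.9 CPM. Stroma markers summed to 45.2 to 86.4, 40.2 to 72.7 and 3.83 to 106 CPM. T cell markers summed to 6.57 to 17.0, 0.467 to 35.4 and 0.120 to 3.25 CPM. Markers of later B cells summed to 2.33 to 16.9, 1.43 to 12.1 and 117 to 151 CPM, with Pax5 leading in Ly6D+Gfra2+ cells and Ms4a1 at 0 throughout. Their sum was highest in Ly6D+Gfra2+ cells, as Pde2a was. It did not go up from Ly6D-Gfra2- to Ly6D+Gfra2- cells, with medians of 8.47 and 3.13 CPM. The part of these cells in the level of Pde2a was not tested.

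The remaining phosphodiesterases were scarce. Of 13 further family members, Pde1a, Pde3a, Pde9a, Pde10a and Pde11a were at 0 in all 13 libraries, and 5 of the 13 passed the filter. Pde8b, a relative of Pde8a, had 1 count in the 3 Ly6D+Gfra2+ libraries together, against 433 counts in Ly6D+Gfra2- and 723 in Ly6D-Gfra2- libraries. Pooled levels were 205 times (95% counting interval 36.5 to 8103) and 234 times (41.9 to 9257) higher in those groups. Single libraries gave most of these counts: Ly6D+Gfra2- replicate 1 held 363 of the 433 and Ly6D-Gfra2- replicate 2 held 442 of the 723, and without them the ratios were 45.7 (7.95 to 1833) and 126 (22.4 to 4984). With all libraries Pde8b had adjusted p of 0.187 and 0.120 (edgeR). DESeq2 called Pde8b in both. Pde5a, specific for cyclic GMP, was at 5.27, 0 and 0 CPM in Ly6D+Gfra2+ replicates 4, 5 and 6 and at 1.42 to 26.8 CPM in the other groups. Pde4c was at 93.1 CPM in Ly6D+Gfra2+ replicate 5, and no other library exceeded 9.48 CPM. Pde7b was lower in Ly6D+Gfra2- than in Ly6D-Gfra2- libraries without overlap, as were 0.951% of all genes tested, at 0.671 ± 0.340 (SD, n = 4) against 5.16 ± 3.45 CPM (SD, n = 6), but with an adjusted p of 0.999 (edgeR).

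The wider cyclic nucleotide pathway was read from lists of 111 genes, of which 110 were counted and 72 passed the filter on low counts. In edgeR 0 of the 72 were called in each comparison. Unadjusted p was under 0.05 for 6 genes in Ly6D+Gfra2- against Ly6D-Gfra2-, for 12 in Ly6D+Gfra2+ against Ly6D+Gfra2- and for 13 in Ly6D+Gfra2+ against Ly6D-Gfra2-, or in all genes for 4.71%, 13.2% and 15.4%. DESeq2 called 0, 4 and 7 of the pathway genes and 0.365%, 5.73% and 7.17% of all genes. Median log2 fold changes of the 72 were -0.00, -0.01 and -0.16, beside -0.01, 0.03 and 0.01 over all genes.

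Among enzymes that make the messengers, the adenylyl cyclase Adcy7 was at 196 ± 45.6 (SD, n = 6), 268 ± 19.6 (SD, n = 4) and 245 ± 114 CPM (SD, n = 3), with adjusted p from 0.754 to 0.999 (edgeR). Gucy1a1, a subunit of the nitric oxide-sensitive guanylyl cyclase that makes cyclic GMP, had 2 counts in Ly6D+Gfra2+ cells, against 6.72 ± 4.53 CPM in Ly6D-Gfra2- cells (SD, n = 6). The pooled ratio was 89.5 (95% counting interval 24.7 to 741), with an adjusted p of 0.109 in edgeR, while DESeq2 called it. Gnas, the stimulatory G protein, was at 738 ± 181 (SD, n = 6), 732 ± 28.7 (SD, n = 4) and 470 ± 236 CPM (SD, n = 3), and the histamine receptor Hrh2 at 17.4 ± 4.72, 24.9 ± 6.60 and 56.7 ± 35.1 CPM in the same order. Neither passed in edgeR.

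Among effectors, Akap12, an anchoring protein for protein kinase A, was at 201, 144 and 51.9 CPM in Ly6D+Gfra2+ replicates 4, 5 and 6 and at 0.979 to 22.8 CPM in the other 10 libraries. Its log2 difference was 3.31 (SE 0.83, adjusted p 0.0909) from Ly6D+Gfra2- cells and 3.17 (SE 0.78, adjusted p 0.0538) from Ly6D-Gfra2- cells in edgeR, and DESeq2 called it in both. Akap10, also an anchoring protein, went the other way, and DESeq2 called it in both. In edgeR it differed by -1.19 (SE 0.42, adjusted p 0.229) and -1.20 (SE 0.41, adjusted p 0.172). Of 13 genes on the list of anchoring proteins that passed the filter, 8 and 7 had positive and 5 and 6 negative differences. Prkaca, the catalytic subunit of protein kinase A, reached 214, 165 and 76.8 CPM in replicates 4, 5 and 6 of Ly6D+Gfra2+ cells, against 65.0 ± 14.1 CPM in Ly6D-Gfra2- cells (SD, n = 6; log2 difference 1.58, SE 0.45, adjusted p 0.0971 in edgeR). Pkig, an inhibitor of that subunit, was at 18.1 ± 9.32, 45.7 ± 24.6 and 70.2 ± 60.0 CPM (SD, n = 6, 4 and 3), and its highest library was Ly6D+Gfra2+ replicate 5 at 139 CPM. Crtc1, a co-activator of CREB, was at 805 CPM in that same library and at 113 and 89.7 CPM in the other Ly6D+Gfra2+ libraries. Prkg1, a cyclic GMP-dependent kinase, was at 0 in all 7 Ly6D+ libraries and at 0 to 13.6 CPM in Ly6D-Gfra2- libraries. Its pooled level was at least 97.7-fold lower in Ly6D+Gfra2- cells and at least 46.2-fold lower in Ly6D+Gfra2+ cells, against 3 counts over the group. Of the 428 counts of Prkg1 in Ly6D-Gfra2- cells, replicate 2 held 305, and without it the bounds were 38.8-fold and 18.3-fold. Prkg1 did not pass in Ly6D+Gfra2- against Ly6D-Gfra2- cells, with an adjusted p of 0.807 (edgeR), and those groups overlapped. Of genes that CREB is known to induce, Junb was at 32.4 ± 23.9 (SD, n = 6), 65.5 ± 30.1 (SD, n = 4) and 122 ± 19.0 CPM (SD, n = 3), and Dusp1 at 80.2 ± 56.0, 76.2 ± 76.7 and 227 ± 20.9 CPM. Both were higher in T than in P libraries within each Gfra2- group, and the Ly6D+Gfra2+ libraries are all T. Dusp1 was at 9.74 to 34.5 CPM in the P libraries and 105 to 151 CPM in the T libraries of those groups, and Junb at 2.40 to 42.3 and 31.2 to 97.4 CPM. With the prefix in the fit, the log2 differences of Ly6D+Gfra2+ from Ly6D+Gfra2- and Ly6D-Gfra2- cells were 1.11 (SE 0.38) and 0.42 (SE 0.39) for Dusp1, and 0.30 (SE 0.62) and 1.41 (SE 0.56) for Junb. Neither passed in edgeR. Of the 9 CREB targets listed, 4 had positive and 5 negative differences in each of these comparisons, with medians of -0.09 and -0.11.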

How the data were processed

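The deposited values are raw counts per RefSeq identifier, per the file headers, in 1 file for each of 13 libraries. The kits were Qiagen RNeasy for total RNA and NuGEN Ovation for the libraries, per the labels' protocols. FastQC, HISAT, TopHat, HOMER, DESeq and the mm10 build are named, per the submitters' processing notes, without roles or versions. Strand setting, annotation version and handling of reads with several matches are not given in the sources used here, so reads of overlapping or antisense transcripts cannot be separated. Of 24072 identifiers 23815 were named from RefSeq and 144 from GENCODE M21, and 113 had no name. These unnamed identifiers held 2.25 to 11.7% of counts and were kept in library sizes, nearly all of them in 1 identifier. Coordinates and promoters are those of RefSeq on GRCm38.p6 (mm10).

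Counts were tested with edgeR 4.0.16 in R 4.3.3 (quasi-likelihood, two-sided, TMM, terms for group and prefix, all 13 libraries in 1 fit). The filterByExpr minimum count was 10 and minimum total 15, which kept 12722 genes. Calls used a Benjamini-Hochberg adjusted p under 0.05 over all genes. SE is the log2 fold change divided by the root of F. The fit was tested on simulated data with known changes. It recovered 25 to 40% of 4-fold and 58 to 69% of 16-fold changes over the 3 comparisons, with 2 to 4 false calls in each. A gene that was not called may therefore still differ. Alternatives were DESeq2 1.42.0, RLE size factors, no filter, no prefix term, a replicate block, T or P libraries alone, and each library left out. For genes with few counts, leaving out the library of most counts was added after the data were seen. A gene at 0 throughout a group is given as a bound against 3 counts over the group, and a gene with 1 or 2 counts as a ratio with a 95% interval; both cover counting error only, since amplified reads are not separate molecules.

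The members, lists and tests were chosen with earlier results of these data known. Named genes were Ly6d, Gfra2, the members, pathway genes called, the 2 smallest p of each list (at least 5 CPM in the higher group), the 5 nearest to Pde2a in pattern, and its neighbours. Genes outside this rule (Adcy7 in some comparisons, Pde5a, Pde7b, Pde4c, Prkg1, Mir139 and the genes in 3 separate bands) were chosen after their values were seen. The pathway lists cover other phosphodiesterases, cyclases, G proteins, receptors, protein kinases A and G, Epac and channels, anchoring proteins, CREB factors and targets, and exporters.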

Additional observations from a re-analysis of the deposited data

Results flagged for a closer look

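Of 16 pairs of a phosphodiesterase and a group with at least 4 libraries, 2 held a library whose gap to its nearest neighbour exceeded Dixon's 95% critical value, a result that chance gives in about 1 in 20 groups. Pde3b was at 47.0 CPM in Ly6D-Gfra2- replicate 2, below the next library at 85.3 CPM (gap 0.678 of the range, critical value 0.625). Pde8a was at 6.36 CPM in Ly6D-Gfra2- replicate 6, above the next at 2.56 CPM (gap 0.742 of the range). These values carry no test beyond that of the gap.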

How the results depend on the processing

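Of 464 fold changes of members under an alternative, 448 kept their direction and side of the threshold or moved by less than the spread, 2 passed the threshold anew (Pde2a for Ly6D, as given in the report), 5 moved and 9 reversed. The 9 are those of the Ly6D comparison, where a test is read. Pde4b went from 0.12 to -0.41 in P libraries alone, an alternative chosen after seeing the data, and ran from -0.022 to 0.35 with 1 library left out, below 0 without Ly6D+Gfra2- replicate 5. Pde7a, at 0.01, ran from -0.080 to 0.084, below 0 without Ly6D-Gfra2- replicate 1, 2 or 4 or Ly6D+Gfra2- replicate 2 or 5. Pde8a went to -0.55 with a replicate block and ran from -0.62 to 1.65, below 0 without Ly6D+Gfra2- replicate 2. In the other comparisons, where no member is tested, the sign also turned in 10 of 152 values against Ly6D+Gfra2- cells (Pde1b, Pde4a, Pde4d, Pde7a and Pde8a) and in 4 of 152 against Ly6D-Gfra2- cells (Pde7a and Pde8a). With 1 library left out, the first of these ran from -0.82 to 0.65 for Pde1b, -0.27 to 0.50 for Pde4a, -0.61 to 0.0086 for Pde4d, -0.50 to 0.032 for Pde7a and -2.07 to 0.35 for Pde8a, and the second from -0.49 to 0.038 for Pde7a and -0.92 to 1.01 for Pde8a. The cause was not tested.

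Counts of calls moved more. For Ly6D+Gfra2- against Ly6D-Gfra2-, the 0 genes called by edgeR became 52 with DESeq2, 9 without a filter, 8 with the replicate block and 1 in T libraries, and ran from 0 to 16 with 1 library left out, the 16 without Ly6D-Gfra2- replicate 3. Members called there became 1 with DESeq2 and 1 without a filter, Pde2a in both, and stayed at 0 with 1 library left out. For Ly6D+Gfra2+ against Ly6D+Gfra2-, the 52 genes became 708 with DESeq2, 164 without a filter, 103 without the prefix term, 25 with the replicate block and 9 in T libraries, and ran from 12 (without Ly6D+Gfra2- replicate 5) to 184 (without Ly6D+Gfra2+ replicate 6). The 0 pathway genes became 4 with DESeq2 (Akap10, Akap12, Gucy1a1 and Pde8b), 2 without a filter and 1 without the prefix term, and ran from 0 to 2. For Ly6D+Gfra2+ against Ly6D-Gfra2-, the 177 genes became 940 with DESeq2, 318 without a filter, 92 with the replicate block and 62 in T libraries, and ran from 49 (without Ly6D-Gfra2- replicate 5) to 372 (without Ly6D+Gfra2+ replicate 6). The 0 pathway genes became 7 with DESeq2 (Akap10, Akap12, Gucy1a1, Hrh2, Pde8b, Pkig and Prkaca), 4 without a filter, 1 without the prefix term and 1 in T libraries, and ran from 0 to 4, the 4 without Ly6D+Gfra2+ replicate 6. Members past the threshold in the 2 comparisons with Ly6D+Gfra2+ cells, on which the set was chosen, are listed without being read as a test. Against Ly6D+Gfra2- cells the 1 became 0 with the replicate block and ran from 0 to 1 with 1 library left out. Against Ly6D-Gfra2- cells the 1 became 2 with DESeq2 and 2 without the prefix term, and ran from 1 to 2.

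Weak correlations could not settle whether replicate numbers pair libraries. Deviations from group means correlated at -0.04 to 0.14 (median 0.02) across genes in 9 same-number pairs, and 1 pair was over 0.1. The replicate block shifted the median of all genes by -0.15 and -0.20 on the log2 scale in the 2 comparisons with Ly6D+Gfra2+ cells, and leaving out Ly6D+Gfra2+ replicate 6 by -0.10 in that against Ly6D+Gfra2- cells. With the block, Pde2a differed by 2.05 (adjusted p 0.520, edgeR) for Ly6D, and by 3.01 and 5.06 in the 2 others. RLE size factors moved no call of a member. Depth limits Pde8a, Pde1b in Ly6D-Gfra2- replicates 1 and 2, Pde8b and Gucy1a1, which rest on few counts. All Ly6D+Gfra2+ libraries have prefix T, so within that group the prefix cannot be examined.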
